A study of Mus musculus with 4 samples.

Results

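The PRAME-like and Oog genes are one multigene family of the mouse, named after PRAME, the human melanoma antigen whose relatives they are. Members were taken as every row whose symbol was Pramel or Pramef with a number, Oog1 to Oog4, Gm13040 or Gm12794. This gave 52 of the 27115 genes of the table: the 4 Oog genes, Gm13040 and, for the rest, Pramel genes. No row carried a Pramef symbol or Gm12794, the older name of the gene listed as Pramel19. RNA was sequenced from mouse embryos at the 2-cell stage, kept in culture until day 2. The controls were 2 libraries labelled wild type. The other 2 libraries came from embryos that overexpressed Trim75, which belongs to the TRIM proteins, a family rich in E3 ubiquitin ligases. The strain, the age of the mothers, the number of embryos per library and the way Trim75 was expressed are not stated in the labels. The study's title places Trim75 in the activation of the zygotic genome, when the embryo begins to transcribe its own genes.

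PRAME-type proteins are built almost entirely of leucine-rich repeats, folds that bind other proteins. Human PRAME is a substrate receptor of the CUL2 ubiquitin ligase, in which cullin 2 and the elongins hold the receptor. In mouse the genes lie in tandem clusters, and their transcripts are known mainly from germ cells and from the embryo before implantation. Oog1 was found as a gene active in oocytes and early embryos, and its protein binds RalGDS, an activator of the small GTPase Ral. Pramel7 works with CUL2 in mouse embryonic stem cells to remove UHRF1, which guides maintenance DNA methylation. In embryos at this stage, transcripts stored by the oocyte and newly made ones are measured together.

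The control libraries held 9965081 and 14599670 counted reads, and the overexpressing libraries 13349188 and 11124411. Trim75 itself was at 171 and 117 CPM (a read count relative to library size, scaled by TMM factors throughout) in the controls and at 919 and 990.1 CPM with overexpression, the direction that the labels give. Whether the replicate libraries were made from separate embryo pools is not stated, and p-values therefore measure the spread between these libraries only, which may be technical. Only the control titles carry an L2C tag, and the library numbers in the titles fall into 2 runs of consecutive numbers, 1 per group, so a preparation batch and Trim75 cannot be told apart. Since libraries were made from whole embryos, fewer cells and less RNA per cell cannot be told apart either.

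Of all counted reads, the family took 0.757% and 0.802% in the controls and 1.02% and 1.06% with overexpression. Exact binomial 95% intervals for counting error were 0.752 to 0.763%, 0.797 to 0.806%, 1.02 to 1.03% and 1.05 to 1.07% in the same order, and the groups did not overlap. Oog3, the most abundant member, accounted for 45.7%, 45.1%, 35.1% and 41.3% of the family's reads. Without Oog3 the family's share was 0.411% and 0.440% in the controls and 0.663% and 0.622% with overexpression, so the groups stayed apart. At least 1 read was seen for 51 and 42 members in the controls and for 52 and 50 with overexpression.

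Of the 52 members, 48 had enough reads to be tested, and the 4 that were not, Pramel37, Pramel40, Pramel45 and Pramel50, lie in the chromosome 5 cluster. The fitted log2 fold change of overexpressing over control libraries was above 0 for 40 of the 48 (83.3%), against 51.3% of the 16801 genes tested. Its median was 0.63 (quartiles 0.12 and 1.27, range -3.89 to 6.51), beside 0.03 over all genes. Both overexpressing libraries lay above both controls for 23 members (47.9%), a pattern seen in 24.0% of all genes tested. The opposite order was seen for 1 member, Pramel44 (2.08%), and in 19.6% of all genes. With no filter on low counts, 21 of all 52 members had groups apart and higher and 1 lower, against 19.7% and 15.9% of all genes in the table. These counts describe the family, whose members share sequence and position, and are no test of it.

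In the quasi-likelihood test of edgeR, with Benjamini-Hochberg adjustment over all genes, 0 members passed an adjusted p of 0.05, and the lowest adjusted p of a member was 0.32. This was also so across all genes, of which 0% were called. Trim75 itself, 6.64-fold higher, had an edgeR adjusted p of 0.32 as well, so the lack of calls does not show that a member was unchanged. At an unadjusted edgeR p under 0.05 there were 7 higher members (14.6%) and 0 lower, against 7.71% and 3.53% of all genes. The 7 were Oog1, Oog2, Pramel16, Pramel22, Pramel26, Pramel27 and Pramel32. DESeq2, run as an alternative on the same genes, gave an adjusted p for 43 members and called 4 of them higher (9.30%), Pramel27, Oog1, Oog2 and Pramel26, and 0 lower. DESeq2 called 2.98% of all genes higher and 1.32% lower. Each DESeq2 value below comes from this alternative and each log2 fold change from edgeR, with its standard error (SE).

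**Figure D1:**
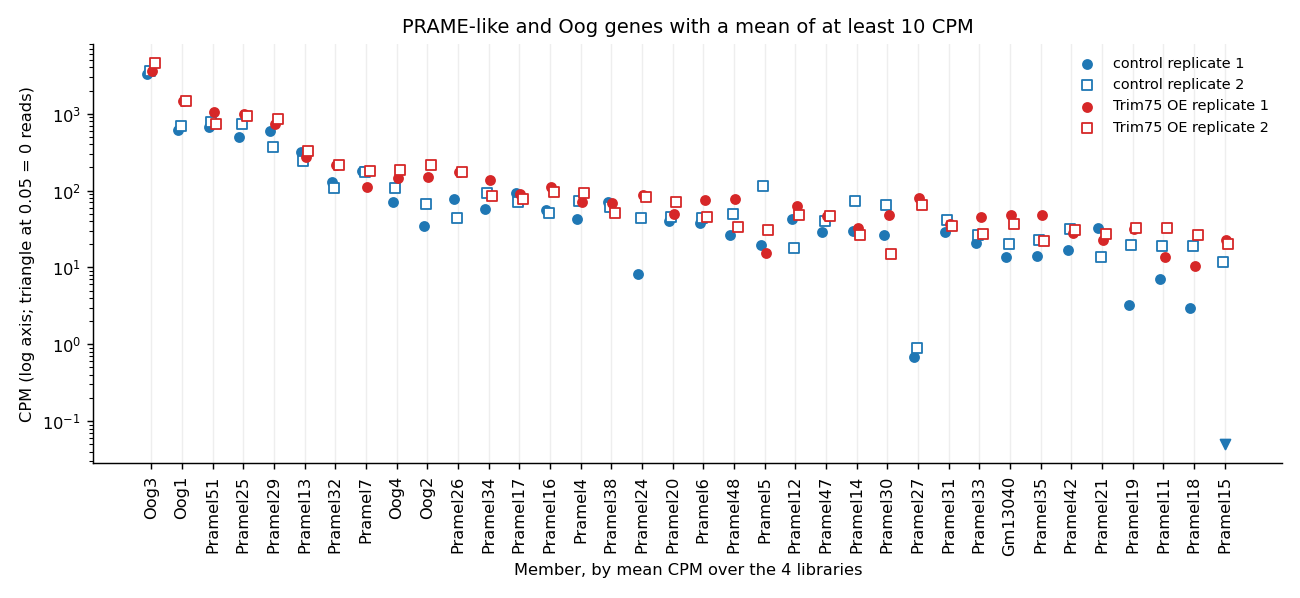
CPM on a log axis in each of the 4 libraries, control and Trim75-overexpressing in separate colours, for the 36 members with a mean of at least 10 CPM, ordered by mean; a triangle at the foot marks 0 reads. For 19 of the 36 both overexpressing points lie above both control points, with the widest gap at Pramel27, and for the other 17 the points overlap.

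Promoters of 6 members, among them the 4 called by DESeq2, are shown here so that sequence and values can be read side by side. Promoter windows, from 250 bases before to 50 bases after the annotated start (RefSeq, GRCm38.p6), were found for 42 members. An 18-base block, GGGTGTGGCNACAAAGGG with N for any base, was noticed in these promoters after the values had been seen. It is the longest stretch with 1 free base inside it that the members holding it have in common. It was defined from 8 members, all 4 Oog genes, Pramel25, Pramel26, Pramel27 and Pramel29. Its presence in them, the 4 called by DESeq2 included, was thus fixed in advance. Sought on both strands, it was in these 8 of the 42 windows (19%) and in no other. Of 32851 promoter windows of all genes, 9 held it (0.0274%), and the one outside the family belongs to Gm2042, a near-identical copy of Oog1. In the 6 windows printed, 5′ to 3′, the capitals mark the block and the TATATA after it.
Oog1: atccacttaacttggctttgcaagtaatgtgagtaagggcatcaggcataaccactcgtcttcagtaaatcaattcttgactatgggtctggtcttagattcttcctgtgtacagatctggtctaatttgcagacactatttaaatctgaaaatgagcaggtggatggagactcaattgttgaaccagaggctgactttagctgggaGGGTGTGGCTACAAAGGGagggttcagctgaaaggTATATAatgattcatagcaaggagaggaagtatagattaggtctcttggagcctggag
Oog2: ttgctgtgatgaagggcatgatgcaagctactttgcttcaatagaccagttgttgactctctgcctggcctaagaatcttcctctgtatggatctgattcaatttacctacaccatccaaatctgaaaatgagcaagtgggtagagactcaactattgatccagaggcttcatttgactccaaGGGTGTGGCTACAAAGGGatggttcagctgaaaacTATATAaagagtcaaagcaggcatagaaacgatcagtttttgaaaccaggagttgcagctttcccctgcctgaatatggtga
Pramel26: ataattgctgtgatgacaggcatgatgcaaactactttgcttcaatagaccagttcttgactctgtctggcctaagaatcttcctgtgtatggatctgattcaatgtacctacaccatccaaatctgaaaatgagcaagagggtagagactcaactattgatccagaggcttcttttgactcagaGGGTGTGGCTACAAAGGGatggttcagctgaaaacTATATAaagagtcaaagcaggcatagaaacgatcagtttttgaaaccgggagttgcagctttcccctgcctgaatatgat
Pramel27: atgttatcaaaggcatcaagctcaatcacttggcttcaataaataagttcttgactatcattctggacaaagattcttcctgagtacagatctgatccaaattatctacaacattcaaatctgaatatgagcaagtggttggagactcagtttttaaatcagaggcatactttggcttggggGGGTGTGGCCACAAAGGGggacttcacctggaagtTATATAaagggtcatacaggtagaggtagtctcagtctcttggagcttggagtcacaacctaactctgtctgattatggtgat
Oog3: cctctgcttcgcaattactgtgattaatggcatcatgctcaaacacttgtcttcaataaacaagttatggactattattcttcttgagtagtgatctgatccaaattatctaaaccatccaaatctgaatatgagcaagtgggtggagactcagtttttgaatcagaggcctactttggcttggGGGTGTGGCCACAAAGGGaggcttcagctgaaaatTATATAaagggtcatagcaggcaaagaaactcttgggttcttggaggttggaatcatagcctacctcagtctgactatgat
Oog4: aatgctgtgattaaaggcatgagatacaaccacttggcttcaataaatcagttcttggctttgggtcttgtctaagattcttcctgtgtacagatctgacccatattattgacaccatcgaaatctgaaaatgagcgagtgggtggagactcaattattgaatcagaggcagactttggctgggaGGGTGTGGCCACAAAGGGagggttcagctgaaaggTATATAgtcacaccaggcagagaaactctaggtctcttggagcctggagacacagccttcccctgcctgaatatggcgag

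The printed windows lie at chr12:87602415-87602714 on the plus strand for Oog1, chr4:144190467-144190766 (plus) for Oog2 and chr4:143816044-143816343 (minus) for Pramel26. Those of Pramel27, Oog3 and Oog4 lie at chr4:143846247-143846546 (plus), chr4:144162602-144162901 (minus) and chr4:143450275-143450574 (minus). In all 8 members the block began 43 to 68 bases before the start, and TATATA followed it after exactly 17 bases. TATATA on its own was found in 20 of the 42 windows (47.6%) and in 5.67% of all promoter windows. No factor is assigned to the block here.

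All 8 members with the block had both overexpressing libraries above both controls in TMM-scaled CPM, an order seen in 24.0% of all genes tested. For Oog3 this depended on the scaling, as its share of counted reads was 0.361% in control 2 and 0.358% in overexpressing library 1. The 8 had a median log2 fold change of 1.03 and a range from 0.24 for Oog3 to 6.51 for Pramel27. Of the 34 members with a window but no block, 30 were tested, and 24 had a log2 fold change above 0. Groups were apart and higher for 12 of the 30, beside the same 24.0% of all genes. Their median was 0.59, with a range from -3.89 for Pramel3 to 3.36 for Pramel22. Levels per length also differed between these sets. Their mean deposited FPKM, a read count divided by exon length and library size, had a median of 138 (18.0 to 2015), and that of the others a median of 13.5 (0.195 to 112). Oog1, Pramel25 and Pramel29 are near-identical copies, as are Oog2 and Pramel26, so the 8 are not separate cases. Because the block was picked with these values known, this is a description with no test.

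**Figure D2:**
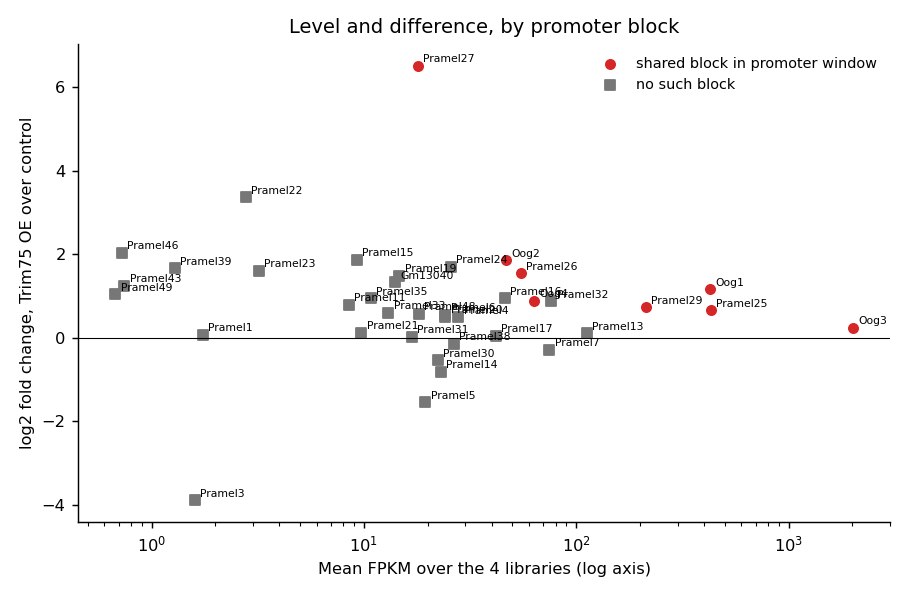
log2 fold change of Trim75-overexpressing over control libraries against mean FPKM on a log axis, 1 point a member, coloured by whether the promoter window holds the block. The 8 block members lie between 0.24 and 6.51, all above 0, and from 18.0 to 2015 FPKM.

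Other short motifs, each sought on both strands, were found as follows. TATAAA, the usual TATA box, was in 15 of the 42 windows (35.7%) and in 13.6% of all windows. TAATTG, the core bound by homeobox factors such as the oocyte factor NOBOX, was in 12 (28.6% against 8%). CCAAT was in 21 (50% against 37.4%), the E-box CANNTG in 38 (90.5% against 72.3%) and GGATTA, a core of the OTX and OBOX type, in 5 (11.9% against 7.06%). AAGGTCA, the NR5A2 binding core, was in 1 (2.38% against 4.72%), and the palindromic core bound by DUX in 0 (0.0335% of all windows). The TATATA and TATAAA counts can include the same stretch of bases. Near-identical copies are counted separately, so the windows are not independent and these shares are descriptions only. Pramel37, Pramel39, Pramel43, Pramel46, Pramel49 and Pramel50, all near-identical copies, each held TATAAA, for example.

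Oog1 (ENSMUSG00000096576, chromosome 12, 87602688 to 87608850, plus strand, GRCm38) encodes the RalGDS-binding protein of oocytes and early embryos. It was at 608 and 702 CPM in the controls and at 1451 and 1473 CPM with overexpression. The means were 655 ± 66.5 and 1462 ± 15.05 CPM (SD, n = 2 each), a 2.23-fold difference (log2 1.16 ± 0.19 SE; edgeR adjusted p = 0.32, DESeq2 adjusted p = 2.5e-05). Both overexpressing libraries exceeded both controls by far more than the controls differed from each other. DESeq2 called Oog1 higher with any 1 of the 4 libraries left out, with adjusted p from 0.00052 to 0.041.

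Oog2 (ENSMUSG00000066030, chromosome 4, 144190719 to 144196934, plus strand) is a relative of Oog1 known, like it, from oocytes. It was at 34.8 and 67.3 CPM in the controls and at 152 and 218 CPM with overexpression, 3.62-fold higher (log2 1.86 ± 0.45 SE; edgeR adjusted p = 0.32, DESeq2 adjusted p = 0.013). Pramel26 (ENSMUSG00000059218, 143809245 to 143816093, minus strand), whose transcript is 98.04% identical to that of Oog2, was at 77.00 and 43.4 CPM in the controls and at 175 and 177 CPM with overexpression, 2.92-fold higher (log2 1.55 ± 0.38 SE; edgeR adjusted p = 0.32, DESeq2 adjusted p = 0.023). The controls differed in opposite order, control 1 being lower for Oog2 and higher for Pramel26. Summed, the pair was at 112 and 111 CPM in the controls and at 327 and 395 CPM with overexpression (log2 1.70 ± 0.23 SE), so the controls came closer together in the sum. With either overexpressing library left out, DESeq2 called neither gene, and with control 2 left out it did not call Pramel26.

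Oog3 (ENSMUSG00000050810, 144157557 to 144162663, minus strand) was the member with the highest level per length, at a mean of 2015 FPKM, rank 14 of all genes in the table. It was at 3327 and 3618 CPM in the controls and at 3634 and 4572 CPM with overexpression (log2 0.24 ± 0.20 SE; edgeR adjusted p = 0.83). The higher control and the lower overexpressing library nearly met, so the groups were apart by less than the controls differed. In FPKM the groups overlapped, at 1938 in control 2 and 1920 in overexpressing library 1. Oog4 (ENSMUSG00000047799, 143437164 to 143450324, minus strand), which shares no 100-base stretch with any other transcript, was at 71.8 and 107 CPM in the controls and at 146 and 185 CPM with overexpression (log2 0.89 ± 0.33 SE; edgeR adjusted p = 0.45, DESeq2 adjusted p = 0.31). Its groups were apart, but neither test called it.

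Pramel27 (ENSMUSG00000029451, chromosome 4, 143846497 to 143853637, plus strand) had the largest log2 fold change of the family. It had 7 and 13 reads in the controls and 1046 and 698 reads with overexpression, or 0.675, 0.891, 79.5 and 65.6 CPM. The difference was 91.0-fold (log2 6.51 ± 0.60 SE; edgeR adjusted p = 0.32, DESeq2 adjusted p = 1.3e-15), and DESeq2 called it with any 1 library left out. It was near the limit of detection in both controls and well counted in both overexpressing libraries. Pramel22, 98.13% identical to it in transcript and named here after its values were seen, was at 0.868 and 0.960 CPM in the controls and at 7.30 and 11.7 CPM with overexpression (log2 3.36 ± 1.12 SE; edgeR adjusted p = 0.40). A 100-base stretch starting at 22.1% of the positions of Pramel27 occurs in Pramel22 too. Summed, the pair was at 1.54, 1.85, 86.9 and 77.2 CPM.

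The chromosome 4 cluster holds 25 members over 1014 kb (143394428 to 144408464), and 22 of them had a log2 fold change above 0 (median 0.74). Of the 25, 16 (64.0%) had both overexpressing libraries above both controls and 0 had the opposite order, beside 24.0% and 19.6% of all genes. Summed over the cluster, levels were 5276 and 5786 CPM in the controls and 6851 and 7991 CPM with overexpression. Pramel25 was at 491, 733, 1004 and 931 CPM in controls 1 and 2 and overexpressing libraries 1 and 2 (log2 0.66 ± 0.27 SE), the order kept for the values that follow. Pramel29 was at 595, 368, 737 and 866 CPM (log2 0.74 ± 0.31 SE). In both genes the groups were apart, but the controls lay farther from each other than the higher control lay from the lower overexpressing library.

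**Figure D3:**
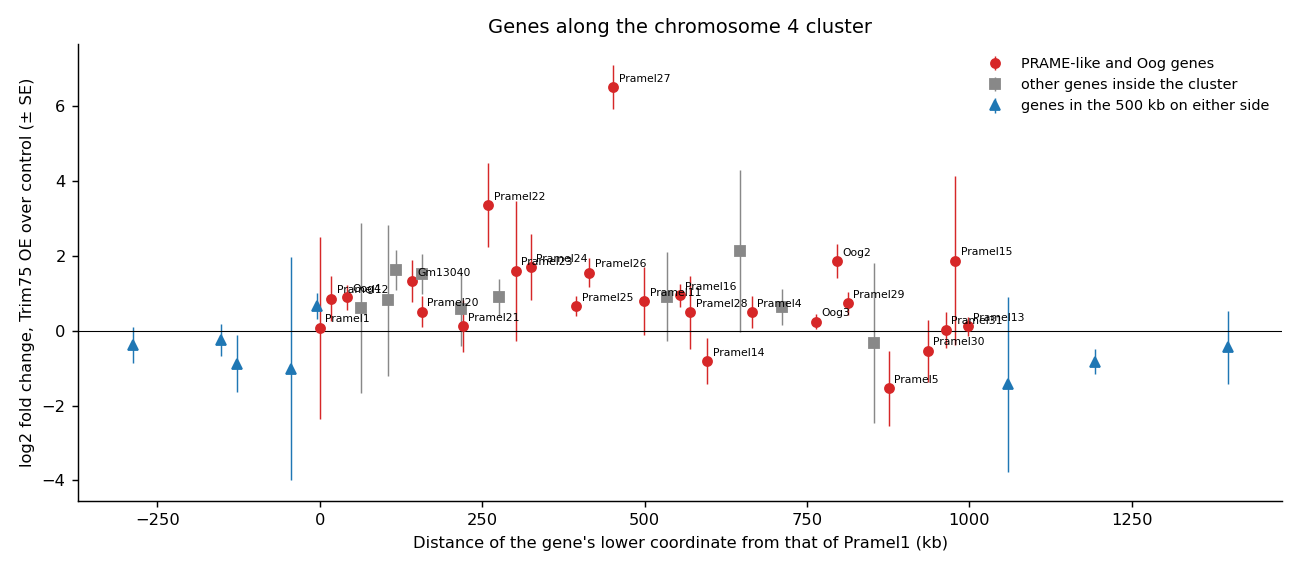
log2 fold change of Trim75-overexpressing over control libraries, with its standard error, against distance in kb along the chromosome 4 cluster, for members and for the other genes tested there and in the flanks. Most members and most other genes inside the cluster lie above 0, while 7 of the 8 flanking genes lie below it.

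Among the less abundant members of the cluster, Pramel16 was at 56.3, 51.1, 112 and 95.1 CPM (log2 0.94 ± 0.31 SE). Gm13040 was at 13.7, 20.3, 48.8 and 36.4 CPM (log2 1.32 ± 0.56 SE). Pramel24 was at 8.10, 43.8, 87.3 and 81.4 CPM (log2 1.70 ± 0.88 SE). All 3 had groups apart, and in Pramel24 the controls lay farther from each other, as a ratio, than control 2 lay from either overexpressing library. Pramel20 (39.8, 44.8, 49.1 and 71.2 CPM) and Pramel12 (42.8, 18.1, 62.1 and 47.8 CPM) had groups apart by small margins. Pramel15, reported to lower DNMT1 in mouse zygotes, had 0 reads in control 1 and 11.7 CPM in control 2, against 22.7 and 20.01 CPM with overexpression.

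Not every member of the cluster was higher. Pramel13, formerly Pramef12 and known from spermatogonia, was at 315, 243, 273 and 330.1 CPM, with the groups interleaved. Pramel5 was at 19.4, 115, 15.4 and 30.7 CPM (log2 -1.54 ± 0.99 SE), control 2 alone standing high. Pramel14 (30.2, 72.8, 32.3 and 26.3 CPM) and Pramel30 (26.5, 65.8, 48.7 and 14.8 CPM), 99.31% identical in transcript, were also highest in control 2. Without control 2, the log2 fold changes of Pramel5 and Pramel30 were 0.25 and 0.26. For Pramel14, control 1 lay between the overexpressing libraries. Pramel4 (42.8, 74.0, 70.2 and 94.3 CPM), Pramel31 (29.1, 41.1, 37.0 and 34.5 CPM), Pramel21 (32.1, 13.8, 22.7 and 27.4 CPM) and Pramel11 (7.14, 19.3, 13.7 and 32.1 CPM) had overlapping groups. The other 3 members of the cluster, Pramel1, Pramel23 and Pramel28, had means under 10 CPM.

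Besides Oog1, chromosome 12 holds Pramel51 (Oog1 and Pramel51 span 87602688 to 88182108). Pramel51 was at 679, 774, 1042 and 729 CPM (log2 0.29 ± 0.26 SE), with overexpressing library 2 between the controls. Its transcript is 98.82% identical to that of Oog1, yet the libraries were ordered differently. Gm2042, outside the rule and found through its promoter block, lies between them (87954080 to 87960683, plus strand) and its transcript is 99.55% identical to that of Oog1. It was at 680.3 and 692 CPM in the controls and at 1313 and 1303 CPM with overexpression (log2 0.93 ± 0.18 SE; edgeR adjusted p = 0.32, DESeq2 adjusted p = 0.00037). Oog1 and Gm2042 summed to 1288 and 1394 CPM in the controls and to 2764 and 2776 CPM with overexpression, and the groups were apart in the sum as well.

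Away from the large cluster, chromosome 4 holds Pramel32 (88627320 to 88634411), which shares no 100-base stretch with another transcript. It was at 128 and 109 CPM in the controls and at 217 and 216 CPM with overexpression (log2 0.87 ± 0.24 SE; edgeR adjusted p = 0.33, DESeq2 adjusted p = 0.12). The groups were apart by more than either group's own spread, but neither test called it. Of the 3 members at 101834969 to 101943183, Pramel19 was at 3.28, 19.5, 31.6 and 32.6 CPM. Pramel17 (92.4, 70.3, 89.6 and 78.4 CPM) and Pramel18 (2.99, 19.3, 10.6 and 26.2 CPM) had overlapping groups. On chromosome 2, Pramel6 was at 37.9, 44.5, 76.1 and 44.9 CPM and Pramel7, the member studied with UHRF1, at 179, 172, 109.8 and 179 CPM (log2 -0.28 ± 0.33 SE). Overexpressing library 2 lay close to a control for both.

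The chromosome 5 cluster holds 18 members over 2254 kb (93481829 to 95736173), of which 14 were tested. A log2 fold change above 0 was found for 11 (median 0.60). Groups were apart for 3 higher members (21.4%) and 1 lower, Pramel44 (7.14%), beside 24.0% and 19.6% of all genes. The share of higher members with groups apart was thus near that of all genes. Summed, the cluster was at 252 and 330.0 CPM in the controls and at 489 and 303 CPM with overexpression, so only overexpressing library 1 stood high. Pramel34 (56.9, 91.9, 139 and 85.04 CPM), Pramel48 (26.2, 49.2, 78.2 and 33.7 CPM) and Pramel35 (14.1, 22.8, 48.7 and 22.2 CPM) were also highest in overexpressing library 1, with overexpressing library 2 between the controls. Pramel33 (20.9, 26.4, 44.6 and 27.4 CPM) and Pramel47 (29.0, 40.5, 46.6 and 46.6 CPM) had groups apart. Pramel38 (71.6, 61.6, 69.7 and 50.6 CPM) and Pramel42 (16.7, 31.8, 27.9 and 30.6 CPM) overlapped.

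The 16 members with means under 10 CPM (0.302 to 6.69 CPM) were Pramel1, Pramel22, Pramel23 and Pramel28 of the chromosome 4 cluster, Pramel3 on the X chromosome, and Pramel36, Pramel37, Pramel39, Pramel40, Pramel41, Pramel43, Pramel44, Pramel45, Pramel46, Pramel49 and Pramel50 on chromosome 5. Of them 12 were tested, with groups apart and higher for 4 (Pramel22, Pramel23, Pramel28 and Pramel39) and apart and lower for 1, Pramel44. Over all genes tested these orders were seen in 24.0% and 19.6%. The gap for Pramel28 was narrow, with 6.51 CPM as its higher control and 7.07 CPM as its lower overexpressing value. For Pramel39 the order rested on the scaling, since FPKM put control 1 (1.30) above overexpressing library 2 (1.26). Control 2 had 0 reads for 10 members, all with means under 10 CPM, though it was the deepest library. Pramel3, with Pramel1 a testis gene in mouse, had 222 reads in control 1 against 0, 15 and 3 in the other libraries and gave the lowest log2 fold change of the family (-3.89 ± 2.98 SE). Prm2, a protamine of sperm, was likewise highest in control 1 and without a read in control 2, at 207, 0, 77 and 39 reads, and its part in the Pramel3 value was not tested.

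Near-identical copies limit how far single members can be told apart, since no source used here gives the settings for reads with several matches. The nearest member of the family was a median 98.0% identical in transcript, and for 46 members it lay in the same locus. At 95% identity over at least 50% of the shorter transcript, 37 members fell into 11 groups of copies. More than 50% of the 100-base stretches recurred in another transcript for 23 members, and no stretch did for 9. In the chromosome 5 cluster the median share of recurring stretches was 82.9%, and in the chromosome 4 cluster 16.1%. Pramel36 and Pramel49 have identical transcripts and had 16, 0, 46 and 8 against 17, 0, 33 and 9 reads.

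Members with little shared sequence were counted on their own. Of the 13 members with under 10% of stretches shared, 11 had a log2 fold change above 0 (median 0.74) and 8 had groups apart and higher. All 16 members with 10 to 50% shared were above 0 (median 0.69), 10 with groups apart. Of the 19 tested members with 50% or more shared, 13 were above 0 (median 0.57), with 5 apart and higher (26.3%) and 1 apart and lower. Over all genes tested, 24.0% were apart and higher and 19.6% apart and lower. With copies summed to 26 rows before the fit, 13 had groups apart and higher and 0 lower. Oog1, Pramel25, Pramel29 and Pramel51, 1 group of copies, summed to 2373 and 2577 CPM in the controls and 4236 and 3999 CPM with overexpression (log2 0.73 ± 0.17 SE; edgeR adjusted p = 0.32, DESeq2 adjusted p = 0.0043). Gm13040, Pramel16, Pramel20, Pramel28 and Pramel31 summed to 144, 164, 254 and 246 CPM (log2 0.70 ± 0.23 SE; DESeq2 adjusted p = 0.23).

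**Figure D4:**
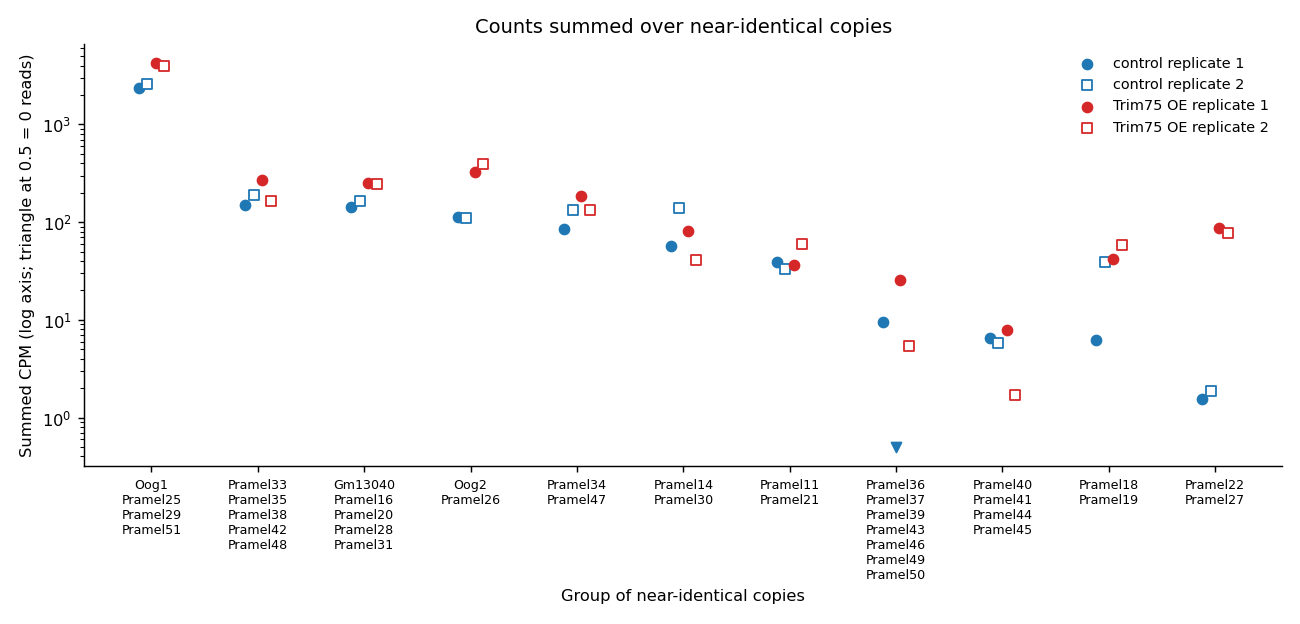
Summed CPM on a log axis in each of the 4 libraries for each group of near-identical copies, with control and Trim75-overexpressing libraries in separate colours. The sum of Oog2 and Pramel26 lies at 112 and 111 CPM in the controls and at 327 and 395 CPM with overexpression, and a triangle marks 0 reads.

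Compared per length, Oog3 at a mean of 2015 FPKM was followed by Pramel25 at 431, Oog1 at 426, Pramel51 at 269, Pramel29 at 213 and Pramel13 at 112 FPKM. Pramel25 (282, 405, 546 and 492 FPKM) lay above Oog1 (258, 286, 583 and 575 FPKM) in both controls and below it in both overexpressing libraries. Differences between members were not tested. In the controls alone Pramel51, at 237 and 259.9 FPKM, lay near Oog1. Oog3, Oog1, Pramel51, Pramel25 and Pramel29 together held 75.9 to 78.3% of the family's reads in the 4 libraries.

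The library that was lowest or highest was uneven across the family. Control 1 was the lowest library for 26 of the 48 tested members (54.2%) and control 2 for 16 (33.3%), against 27.8% and 31.8% of all genes. Overexpressing library 1 was the highest for 21 members (43.8%) and overexpressing library 2 for 14 (29.2%), against 22.6% and 25.2% of all genes. With each library left out in turn, the median log2 fold change of the family stayed between 0.37 and 0.87. Leaving out 1 library changed the members that DESeq2 called. Its calls over all genes changed too, rising without either control and falling without either overexpressing library, so these changes are not particular to the family. Without control 1, Pramel29 was added and Pramel5 was called lower. Without control 2, Pramel15, Pramel19, Pramel24 and Pramel25 were added and Pramel26 was lost. Without either overexpressing library, only Pramel27 and Oog1 remained.

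Genes of other families beside the chromosome 4 cluster were compared with those inside it. Inside, 10 further genes were tested, among them the PRAME-type genes Gm13043, Gm13057 and Gm13102 and several pseudogenes. Gm13057 holds 99.5% of the 100-base stretches of Gm13040, and Gm13102 77.1% of those of Pramel4, so their counts may not be independent of members. Gm13043, Gm13057 and Gm13102 are counted again in the list of other PRAME-type genes below. Of the 10, 9 had a log2 fold change above 0 (median 0.85), and 5 had groups apart and higher, beside 51.3% and 24.0% of all genes. In the 500 kb on each side, 8 genes were tested, of which 1 was above 0 (median -0.64), with 1 apart and higher and 2 apart and lower. The flanking genes included Prdm2 (log2 -0.38), which encodes a zinc finger protein, and Pdpn (log2 -0.89), which encodes podoplanin. These genes were picked by position only, and no test of the difference was run.

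Besides Gm2042, which DESeq2 called, a list of other PRAME-type genes outside the rule had 7 in the table, of which 6 had a log2 fold change above 0 (median 1.03), 5 had groups apart and higher, and 0 of the 7 were called by edgeR or DESeq2. The most abundant of the 7 were AA792892 at 44.7, 40.1, 82.2 and 91.4 CPM (log2 1.03 ± 0.34 SE) and Gm13102 at 26.4, 42.5, 46.6 and 60.5 CPM (log2 0.64 ± 0.48 SE). The 21 genes listed for the CUL2 ligase, the enzyme that human PRAME serves, had 11 members above 0 and 10 below (median 0.04). The list also held genes that act on cullins in general, such as Cand1. Of the 21, 5 were apart and higher (23.8%) and 3 apart and lower (14.3%), beside 24.0% and 19.6% of all genes. Of these genes 0 were called by either tool. The most abundant genes on this list were Klhdc2, a substrate receptor (log2 0.09 ± 0.26 SE), and Cand1, which exchanges receptors on cullins (log2 -0.51 ± 0.44 SE). Of 11 tested genes reported to work with PRAME-type proteins, 5 were above 0 and 6 below (median -0.03). Groups were apart and higher for 5 (45.5%) and apart and lower for 2 (18.2%), and 0 were called by either tool. Dppa3, a maternal factor that keeps UHRF1 out of the nucleus, was at log2 -0.03 ± 0.30 SE and Ezh2, the H3K27 methyltransferase, at log2 0.43 ± 0.19 SE.

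Markers of stage and of other cells were read beside the family. Over all genes tested, 24.0% had groups apart and higher and 19.6% apart and lower. Late 2-cell transcripts summed to 1199.9, 1999, 1893 and 2059 CPM, lowest in control 1. Of 13 tested, 10 had a log2 fold change above 0 (median 0.30) and 3 had groups apart and higher (23.1%). DESeq2 called Gm4340 (log2 1.54 ± 0.31 SE, DESeq2 adjusted p = 0.0082). Oocyte transcripts summed to 8811, 10128, 9360 and 11584 CPM, with overlapping groups. Of 18 tested, 10 were above 0 (median 0.07), 6 apart and higher (33.3%) and 4 apart and lower (22.2%). DESeq2 called Kit (log2 3.45) and Bmp15 (log2 0.87) higher and H1f8 (log2 -1.37) lower. Cumulus and granulosa markers summed to 14.5, 3.15, 5.86 and 20.6 CPM over 6 genes. Nearly all of this came from Tnfaip6, at 124, 3, 0 and 136 reads, and Col1a1, at 19, 37, 69 and 82 reads with groups apart and higher, while Foxl2 had 2, 0, 0 and 0 reads and Has2 had 0, 2, 0 and 0. Sperm and testis markers summed to 25.9, 20.7, 25.2 and 21.9 CPM over 3 genes, led by Ldhc (5.69, 20.7, 19.4 and 18.2 CPM) and Prm2. Markers of later embryos summed to 169.9, 331, 195 and 196 CPM over 8 genes, led by Tfap2c (126, 307, 138 and 126 CPM) and Sox2 (9.17, 3.84, 24.0 and 47.2 CPM, groups apart and higher). The part of stage, of stored transcripts or of other cells in the family's difference was not tested.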

How the data were processed

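The submitters' processing notes name the mm10 genome and the tools FastQC, Trim Galore, HISAT2 and featureCounts. No source used here gives their versions, the annotation, or how strand and multi-mapping reads were handled. Per the file headers, the table deposited by the authors holds raw read counts and FPKM values for each gene in each library. Genes were placed with GENCODE M21 (GRCm38, the assembly of mm10), in which all 52 members were found, 41 under an older name.

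The test on the counts used edgeR (4.0.16) in R (4.3.3): filterByExpr kept 16801 genes, scaled by TMM factors, and glmQLFit and glmQLFTest compared the groups, with Benjamini-Hochberg adjustment over all genes and a threshold of 0.05. The biological coefficient of variation was 0.91. The code was tested on simulated data. At the dispersion of these data (0.82, the square of that coefficient), edgeR recovered 0% of simulated 4-fold changes and 0% of 16-fold changes. At a dispersion of 0.04 it recovered 100% of both. A gene that edgeR did not call here can therefore not be taken as unchanged. No molecular identifiers are described, so intervals cover counting error only. Transcripts were compared with blastn (2.17.0). Members with a mean of at least 10 CPM or a call by edgeR or DESeq2 (1.42.0) were named with values, and from each list the called genes or, failing any, the 2 most abundant. Members and lists were chosen with earlier results of these data known. Alternatives were other scaling factors and filters, a block for the replicate number, leaving out each library, DESeq2, limma (3.58.1) voom, limma on log2(FPKM + 1) or log2(FPKM + 0.1), and copies summed. DESeq2 on all genes of the table or with a library left out, and members with little shared sequence, were chosen after seeing the data. A group reduced to 1 library was taken to have the spread of the other. Figures were drawn with matplotlib (3.10.9).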

Additional observations from a re-analysis of the deposited data

How the results depend on the processing

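The family's median log2 fold change stayed above 0 under every alternative run. The count of 23 higher members with groups apart was 13 of 26 with copies summed and 8 of 13 among members with under 10% of stretches shared. It was 21 with RLE scaling factors and 26 to 34 with a library left out. With 1 library left in a group, fewer values must be in order, so groups are more readily apart in either direction. No share over all genes is given for those fits, so their counts of higher and lower members cannot be set against the main ones. The 1 lower member with groups apart became 2 with total counts as the scale, 2 with log2(FPKM + 1), 2 with log2(FPKM + 0.1), 0 with a filter at 5 CPM, 0 with copies summed, 0 among members with under 10% shared, and 3 to 8 with a library left out. edgeR called 0 genes. DESeq2 called 652 of the filtered genes and 885 over all genes of the table, with 4 members in each. With a library left out it called from 102 to 2094 genes (2094 without control 1, 1003 without control 2, 157 and 102 without overexpressing library 1 or 2) and 2 to 7 members. The difference in the family's share of reads, 0.261 percentage points, was 0.304 with TMM-scaled library sizes, 0.217 without Oog3 and 0.239 to 0.283 with a library left out. Pramel17 and Pramel31 turned to log2 -0.026 and -0.038 with total counts, to -0.014 and -0.024 with log2(FPKM + 1), and to -0.014 and -0.025 with log2(FPKM + 0.1). With a library left out, log2 fold changes ranged from -0.14 to 0.25 for Pramel17, -0.21 to 0.29 for Pramel31, -0.080 to 2.61 for Pramel18, -0.13 to 0.81 for Pramel42, -0.065 to 0.30 for Pramel13, -1.68 to 0.26 for Pramel30, -2.33 to 0.25 for Pramel5, -0.36 to 0.85 for Pramel21, -0.021 to 0.52 for Pramel51, -0.19 to 1.09 for Pramel48 and -0.42 to 0.068 for Pramel38. The cause of these turns was not tested. With the replicate number as a block, edgeR called 0 genes and 0 members and the family's median was 0.73. At an unadjusted edgeR p under 0.05 that fit had 1342 genes and 6 members. Same-numbered libraries share only a number in the labels, and their deviations correlated at 0.01 over all genes and at 0.50 over the 48 members tested. Members under 10 CPM rest on few reads, and 10 of them had 0 reads in control 2, the deepest library.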
